A study of Mus musculus with 6 samples.

Results

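Gas5, Snhg1, Snhg3, Snhg5, Snhg6, Snhg7, Snhg8 and Snhg12 are noncoding genes that carry small nucleolar RNAs (snoRNAs) inside their transcription units. They were chosen by name, and all 8 were found among the 23420 genes of the deposited files. Their levels were compared between B cells with and without a TLR9 ligand. B cells were purified with beads from the spleens of wild-type BALB/c mice and kept in culture for 4 hours. The CpG-stimulated group (n = 3) received 10 μg/mL of CpG ODN 1826, a synthetic DNA that activates TLR9, and the unstimulated group (n = 3) received none. Cells of both groups had the same genotype and strain, came from 3 mice of 7 to 11 weeks of age, and were cultured as 10 M cells at 10 M per mL. Replicates 1 and 2 of each group were labeled female and replicate 3 male, and the sources used here do not state whether each number is 1 mouse. The p values below therefore measure the spread between these samples, which may in part be technical.

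A snoRNA host gene is transcribed and spliced, and its introns are then processed into snoRNAs. Mature snoRNAs of the box C/D class guide 2′-O-methylation of ribosomal RNA, those of the box H/ACA class guide pseudouridylation, and some are needed to cut the ribosomal RNA precursor. The spliced exons of many of these genes have no long reading frame and are degraded by nonsense-mediated decay when they are translated. For this reason the level of the spliced RNA need not follow the amount of snoRNA made, and Gas5 was named for its accumulation in growth-arrested cells. Many host genes also start with a C and a run of pyrimidines, the 5′ terminal oligopyrimidine element that they share with ribosomal protein genes.

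The sequences around the transcription starts are given because this element is a known feature of the family. A start was in the RefSeq table (GRCm38.p6) for 7 of the 8 genes, with 2 starts for Gas5, and Snhg6 is named only. Each sequence below runs 5′ to 3′ on the strand of the gene, from 20 bases before the annotated start through the first 30 bases of the transcript. Capitals mark the longest run of at least 5 bases that begins with C, holds only C or T, and begins no more than 10 bases from the start.
Gas5, first start: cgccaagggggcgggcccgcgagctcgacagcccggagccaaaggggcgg
Gas5, second start: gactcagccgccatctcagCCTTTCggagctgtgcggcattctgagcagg
Snhg1: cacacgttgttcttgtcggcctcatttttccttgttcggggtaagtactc
Snhg3: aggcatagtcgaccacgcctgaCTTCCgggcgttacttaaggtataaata
Snhg5: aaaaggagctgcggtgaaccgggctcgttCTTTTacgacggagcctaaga
Snhg7: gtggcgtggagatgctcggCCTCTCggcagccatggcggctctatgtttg
Snhg8: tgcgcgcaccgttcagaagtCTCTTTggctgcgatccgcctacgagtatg
Snhg12: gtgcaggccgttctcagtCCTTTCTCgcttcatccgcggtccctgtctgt

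The Gas5 sequences lie at chr1:161034581-161034630 and chr1:161035146-161035195 on the plus strand. Those of Snhg1 (chr19:8723467-8723516) and Snhg12 (chr4:132308658-132308707) are also on the plus strand. The others are on the minus strand, at chr4:132353657-132353706 for Snhg3, chr9:88522868-88522917 for Snhg5, chr2:26640215-26640264 for Snhg7 and chr3:123508307-123508356 for Snhg8. A run was present at 6 of the 8 starts, against 30.7% of all 32851 starts of the table, 54.4% of 68 starts of cytosolic ribosomal protein genes and 4 of 12 starts of other noncoding snoRNA hosts. The longest run, 8 bases, was that of Snhg12. The definition was set after these sequences had been seen, and a match is a description of letters rather than of a regulated site. The letters CACGTG, which read the same on both strands and form the E-box bound by MYC, occurred in 0 of the 8 windows of 300 bases (250 before the start and 50 after) and in 7.15% of all such windows.

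Values are log2 CPM after quantile normalization by the authors, and log2FC is the CpG-stimulated mean minus the unstimulated mean. The normalization gives all samples the same distribution, so a change in total RNA per cell is not visible, and in bulk samples fewer cells with a transcript and less of it per cell cannot be told apart. All 8 B cell markers checked were present, with a median of 8.91 on the log2 CPM scale. Of the other lists, 1 of 6 T cell markers, 0 of 4 NK cell markers, 4 of 5 myeloid markers, 3 of 4 plasmacytoid dendritic cell markers and 5 of 6 erythroid markers had a mean above the value of 10 reads. Cd3e, Cd4 and Cd8a stayed at or below 3 reads in all samples, as did Ncr1, Gzma and Hba-a1. Summed CPM of the lists was 3950 to 4575 in unstimulated and 2948 to 3366 in stimulated samples for B cells, 1.45 to 1.87 and 1.29 to 1.54 for T cells, 0.206 to 0.312 and 0.715 to 1.40 for NK cells, and 7.16 to 13.8 and 9.98 to 15.3 for myeloid cells. It was 252 to 261 and 127 to 134 for plasmacytoid dendritic cells, a list that includes Tcf4 and Bst2, which B cells also express, and 420 to 3913 and 397 to 4980 for erythroid cells. The part of these other cells in the results was not tested.

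Host genes changed in both directions after CpG. In the fit over all 11233 genes tested, 5 of the 8 were higher after stimulation (Snhg7, Snhg3, Snhg5, Snhg6 and Snhg1), 2 were lower (Snhg12 and Snhg8), and Gas5 did not pass an FDR of 0.05. Of all genes tested, 37.6% were higher and 36.7% lower, together 74.3%, and these shares are the background for the counts. A log2FC beyond 1 was found for 2 host genes in the upward direction and 0 in the downward direction, against 15.8% and 15.3% of all genes. The median log2FC of the 8 was 0.44, and that of all genes was 0.003. The values of both groups did not overlap in 7 of the 8 genes, with 5 higher and 2 lower, which was true of 77.7% of all genes, 39.1% in the upward and 38.6% in the downward direction. All 8 genes were above the value of 10 reads in all 6 samples.

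**Figure D1:**
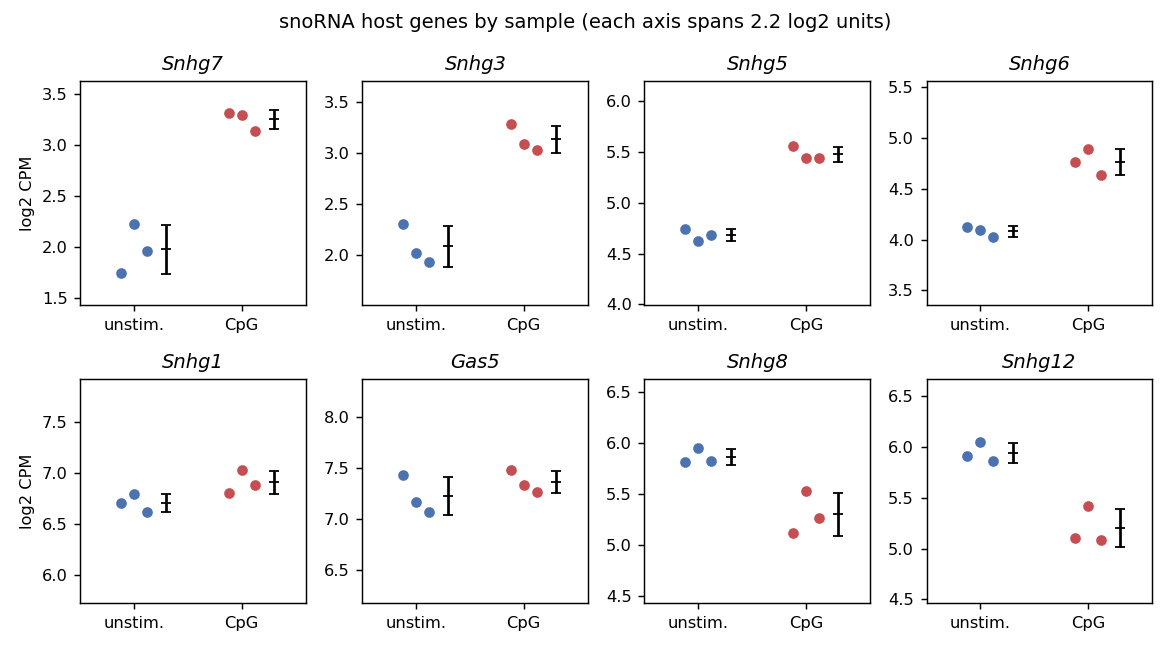
Log2 CPM of each host gene in the 3 unstimulated (blue) and 3 CpG-stimulated (red) samples, replicates 1 to 3 from left to right, with mean and SD as bars beside the points; each vertical axis covers 2.2 log2 units at a different level. Groups are apart in 7 panels and overlap in that of Gas5, and the red points are the lower ones for Snhg8 and Snhg12.

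Snhg7 (chr2:26637176-26640244, minus strand) carries the H/ACA genes Snora17 and Snora43 and showed the largest rise of the 8. Its log2 CPM was 1.74, 2.23 and 1.96 in unstimulated replicates 1 to 3, and 3.32, 3.30 and 3.15 in stimulated replicates 1 to 3. The stimulated values were close together and all lay above the highest unstimulated value. The mean went from 1.98 ± 0.24 to 3.25 ± 0.10 (SD, n = 3 each), a log2FC of 1.28 (SE 0.15, 95% confidence interval 0.93 to 1.62, FDR = 3.31e-05), or 2.42-fold. Its means corresponded to about 70.1 and 170 reads of a library of 17.8 M, and this gene and Snhg3 had the fewest reads of the 8.

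Snhg3 (chr4:132351933-132353686, minus strand, 3 exons) hosts Snora73a and Snora73b, H/ACA snoRNAs needed for processing of the ribosomal RNA precursor. Unstimulated cells had 2.30, 2.02 and 1.92, and stimulated cells 3.28, 3.08 and 3.03. Replicate 1 was the highest in both groups, and the groups lay apart. Snhg3 rose from 2.08 ± 0.20 to 3.13 ± 0.14 (SD, n = 3 each), with a log2FC of 1.05 (SE 0.15, interval 0.72 to 1.39, FDR = 1.10e-04), or 2.07-fold.

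Snhg5 (chr9:88521052-88522897, minus strand, 5 exons), the host of the box C/D genes Snord50a and Snord50b, had a small spread. Its values were 4.74, 4.63 and 4.68 without CpG, and 5.56, 5.43 and 5.43 with it. The distance between the groups was several times the range within either. The log2FC was 0.79 (SE 0.08, interval 0.62 to 0.96, FDR = 5.85e-06), or 1.73-fold. Snhg6 (chr1:9942025-9944118, minus strand, 4 exons), which hosts Snord87, moved in a similar way. It was at 4.12, 4.09 and 4.03 in unstimulated cells, and at 4.76, 4.89 and 4.63 in stimulated cells. Again no values overlapped, and the log2FC was 0.68 (SE 0.09, interval 0.48 to 0.89, FDR = 7.34e-05), or 1.60-fold.

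The 2 genes with the most reads changed least. Snhg1 (chr19:8723487-8726326, plus strand, 10 exons) holds a row of box C/D genes in its introns, Snord22 among them. Its log2 CPM was 6.71, 6.80 and 6.62 before and 6.81, 7.04 and 6.89 after CpG. The lowest stimulated value was just above the highest unstimulated one, and the log2FC was 0.20 (SE 0.08, interval 0.03 to 0.38, FDR = 0.0345), or 1.15-fold. This call was the least stable of the 8. The FDR was 0.0926 without stimulated replicate 2, 0.0665 without stimulated replicate 3, 0.0748 without unstimulated replicate 1, 0.128 without unstimulated replicate 3 and 0.196 without both samples of number 3.

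Gas5 (chr1:161034601-161038539, plus strand) was at 7.43, 7.17 and 7.07 in unstimulated and at 7.48, 7.33 and 7.27 in stimulated samples. Unstimulated replicate 1 was above stimulated replicates 2 and 3, so the groups overlapped, although the stimulated sample was the higher one in 3 of 3 pairs with the same number. The log2FC was 0.14 (SE 0.10, interval -0.08 to 0.35, FDR = 0.214), and 12.2% of all genes tested had a smaller absolute change. The interval thus runs from a small fall to a rise of 0.35 on the log2 scale. With replicate number as a block the log2FC of Gas5 was the same and the FDR was 0.0313. Without unstimulated replicate 1 the log2FC was 0.24 (FDR = 0.0268).

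Snhg8 and Snhg12 went down. Snhg8 (chr3:123507552-123508336, minus strand) is a gene of 1 exon in RefSeq, with Snora24 inside that exon. Its values were 5.81, 5.95 and 5.83 in unstimulated cells, against 5.12, 5.53 and 5.26 in stimulated cells. Stimulated replicate 2 was the highest of its group and still below every unstimulated sample. The mean fell by 0.56 on the log2 scale (SE 0.10, interval -0.79 to -0.33, FDR = 6.52e-04), a change of -32.3%.

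Snhg12 (chr4:132308678-132311024, plus strand, 5 exons) hosts Snora16a, Snora44, Snora61 and Snord99. It was at 5.91, 6.05 and 5.86 without CpG and at 5.10, 5.41 and 5.08 with CpG. As for Snhg8, replicate 2 was the highest in both groups and the groups were apart. The mean went from 5.94 ± 0.10 to 5.20 ± 0.18 (SD, n = 3 each), a log2FC of -0.74 (SE 0.10, interval -0.96 to -0.52, FDR = 7.26e-05), or a change of -40.1%. Snhg12 and Snhg3 lie close together on chromosome 4, with Trnau1ap and Rcc1 between them, and moved in opposite directions.

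As rises and falls partly balanced, the summed level of the 8 genes differed little. Without adjustment for length it was 445, 434 and 397 CPM in unstimulated and 454, 472 and 430 CPM in stimulated samples, which overlap (exact permutation test, two-sided, p = 0.3, with 0.1 the smallest p possible). Gas5 made up 35.3% ± 3.0 of the sum without CpG and 36.5% ± 2.7 with it. Snhg1 made up 24.6% ± 1.1 and 26.7% ± 1.7 (SD, n = 3 each). The share of Snhg12 went from 14.5% to 8.16% and that of Snhg8 from 13.7% to 8.78%, while Snhg5 went from 6.05% to 9.86%, Snhg7 from 0.938% to 2.11% and Snhg3 from 0.998% to 1.94%. Snhg6 made up 3.91 to 4.10% without and 5.78 to 6.26% with CpG. In these 6 genes the shares of both groups did not overlap. Their log2 CPM did not overlap either, and 77.7% of all genes tested had no overlap in log2 CPM. The shares are parts of 1 sum, so they are not separate results.

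Levels of different genes were compared only per kb of spliced transcript, for the 6 genes with 1 RefSeq transcript whose length could be matched. Gas5, with 8 RefSeq transcripts, and Snhg7 were left out. In unstimulated cells the order on the log2 scale of CPM per kb was Snhg1 (7.43 ± 0.09), Snhg12 (6.66 ± 0.10), Snhg8 (6.23 ± 0.08), Snhg6 (5.40 ± 0.05), Snhg5 (4.68 ± 0.06) and Snhg3 (3.27 ± 0.20), and no neighbors in this order overlapped. In stimulated cells it was Snhg1 (7.63 ± 0.12), Snhg6 (6.08 ± 0.13), Snhg12 (5.92 ± 0.18), Snhg8 (5.67 ± 0.21), Snhg5 (5.47 ± 0.07) and Snhg3 (4.32 ± 0.14). Snhg6 and Snhg12 then overlapped, as did Snhg12 and Snhg8, and Snhg8 and Snhg5. Only Snhg1 at the top and Snhg3 at the bottom stood apart from their neighbors after CpG.

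**Figure D2:**
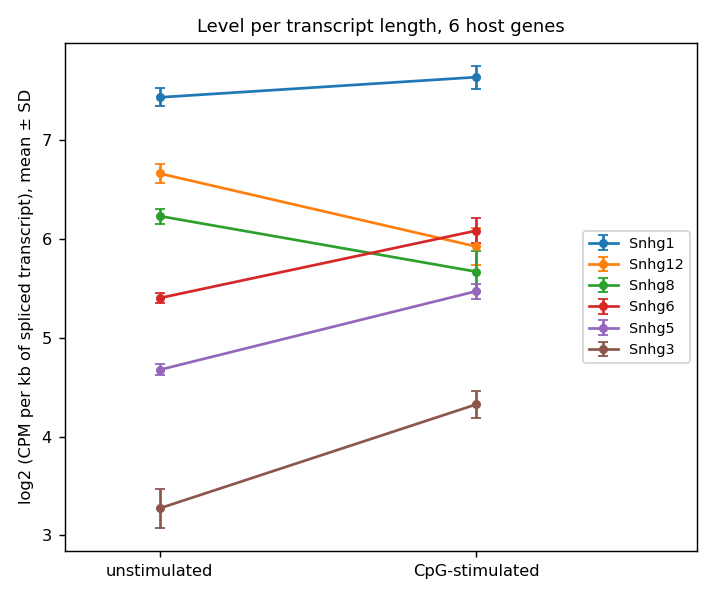
Mean log2 CPM per kb of spliced transcript of 6 host genes in unstimulated and CpG-stimulated cells, with SD (n = 3) as bars and a line joining the 2 means of each gene. The 6 genes are apart on the left, and Snhg6, Snhg12, Snhg8 and Snhg5 come together on the right, between 5.47 and 6.08.

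The host RNAs were next set beside the snoRNA genes inside them. GENCODE M21 places 29 such genes within the 8 hosts: 9 in Gas5, 8 in Snhg1, 4 in Snhg12, 2 each in Snhg3, Snhg5 and Snhg7, and 1 each in Snhg6 and Snhg8. The files listed 11 of them, and 9 passed the filter on low values. Libraries were made from poly-A RNA, and mature snoRNAs have no poly-A tail. The reads thus measure RNA at the site and cannot be taken as the level of mature snoRNA. How much of this RNA was mature snoRNA, unspliced host RNA or a host isoform with an exon there was not tested. How reads that overlap more than 1 gene were counted is not given in the sources used here.

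The sequences of 5 of the 9 are given as examples in which the letters of either class were found. They were not found in Snord22 and Snora44, 2 others of the 9. They come from the GENCODE M21 transcripts (GRCm38), 5′ to 3′. Capitals mark the C box TGATGA and the D box CTGA of the box C/D genes and the ACA near the 3′ end of the H/ACA genes. Both C/D letters, each within 20 bases of its end, were found in 20.6% of 1507 annotated snoRNA transcripts, and an ACA near the 3′ end in 44.3%.
Snord47: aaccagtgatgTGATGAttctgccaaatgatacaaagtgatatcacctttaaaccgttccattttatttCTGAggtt
Snord87: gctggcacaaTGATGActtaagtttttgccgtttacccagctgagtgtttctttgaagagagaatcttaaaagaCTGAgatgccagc
Snord99: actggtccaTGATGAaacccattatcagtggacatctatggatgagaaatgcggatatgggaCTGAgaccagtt
Snora16a: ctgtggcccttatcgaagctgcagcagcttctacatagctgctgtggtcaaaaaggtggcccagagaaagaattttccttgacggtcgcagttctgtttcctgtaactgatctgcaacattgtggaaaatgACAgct
Snora61: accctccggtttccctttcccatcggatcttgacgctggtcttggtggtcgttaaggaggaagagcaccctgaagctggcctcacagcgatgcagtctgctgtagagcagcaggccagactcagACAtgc

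Snord47 lies at chr1:161038082-161038158 in Gas5, Snord87 at chr1:9942463-9942549 in Snhg6, and Snora16a (chr4:132309464-132309600), Snora61 (chr4:132310240-132310369) and Snord99 (chr4:132310691-132310764) in Snhg12. Snord87 and the Snhg12 genes are in introns of the RefSeq transcript of their host. Of the GENCODE isoforms of Snhg12, 2 of 10 have an exon over Snora16a, 4 of 10 over Snora61 and 3 of 10 over Snord99. For Snord47 it is 1 of 25 Gas5 isoforms, and for Snord87 0 of 5 Snhg6 isoforms.

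Of the 9 snoRNA genes that passed the filter, Snora43 did so through its stimulated samples alone and so had to be higher in them. The 8 others were all higher after CpG, against 37.6% of all genes, and so were 6 of 6 that were above the value of 10 reads in all samples. The rest of the 8, Snord87 and Snord99, passed the filter only with the help of their stimulated samples. Their calls are therefore no support for a rise. Of 52 tested snoRNA genes outside these hosts, 39 were higher as well, with a median log2FC of 1.14. These 52 include 3 that passed the filter through the stimulated samples alone. Of the 32 above the value of 10 reads in all samples, 24 were higher. The genes were picked by position, but their values had been seen before the comparison with their hosts was made. Within Snhg12, which fell, Snora16a was at 1.16, 1.13 and 0.82 in unstimulated and 2.34, 2.46 and 2.29 in stimulated samples. Its groups were well apart, with a log2FC of 1.33 (SE 0.17, FDR = 6.04e-05). Snora61 had 0.25, 0.52 and 0.18 against 1.95, 1.87 and 1.55, a log2FC of 1.48 (FDR = 1.33e-04). Snora44 rose by 1.19 (FDR = 0.00379) and Snord99 by 1.31 (FDR = 0.00671). The signal at these genes was low, with means of about 11.2 to 36.5 reads in unstimulated and 27.7 to 91.5 reads in stimulated cells, while Snhg12 itself was at about 1090 and 653 reads.

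Snord47, in Gas5, was at 0.18, 0.21 and 0.09 without CpG and at 1.66, 1.58 and 1.26 with it. It was higher in each stimulated sample (log2FC 1.34, FDR = 3.02e-04), while Gas5 was not called. Snord22, in Snhg1, rose by 1.34 (FDR = 5.44e-05). Snord87, in Snhg6, had -1.89, -0.70 and -2.01 against 0.57, 0.78 and 0.84, with a log2FC of 2.26 (FDR = 5.90e-04), and only 1 of its unstimulated values was above that of 10 reads. In Snhg7, Snora17 rose by 0.96 (FDR = 0.0151). Snora43 was at -0.97, -1.39 and -3.07 against -0.64, -0.10 and 0.58. Its FDR is left out because it passed the filter through its stimulated samples alone. The gene named Mir5117 in Gas5 and Snora24 in Snhg8 were at the level of no reads in all samples. The snoRNA genes of Snhg3 and Snhg5 were not analysed here.

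The difference between each of the 8 snoRNA genes and its host was then compared between the groups. It grew by 2.06 for Snora16a, 1.93 for Snora44, 2.21 for Snora61 and 2.05 for Snord99 against Snhg12 (log2 units). It grew by 1.20 for Snord47 against Gas5, 1.14 for Snord22 against Snhg1 and 1.58 for Snord87 against Snhg6. For these 7 the 3 stimulated and 3 unstimulated differences did not overlap (exact permutation test, two-sided, p = 0.1 for each, the smallest possible; 0.114 after adjustment over 8 comparisons). The difference between Snora17 and Snhg7 changed by -0.32 and overlapped between the groups (adjusted exact permutation p = 0.5). A design of 3 against 3 samples cannot reach 0.05 in this test. Of the 7 without overlap, Snord87 and Snord99 passed the filter only with the help of their stimulated samples. Of all genes tested, 77.7% had no overlap between the groups, and the share for differences between genes was not computed. The 4 genes of Snhg12 share 1 host, so their differences are not independent.

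**Figure D3:**
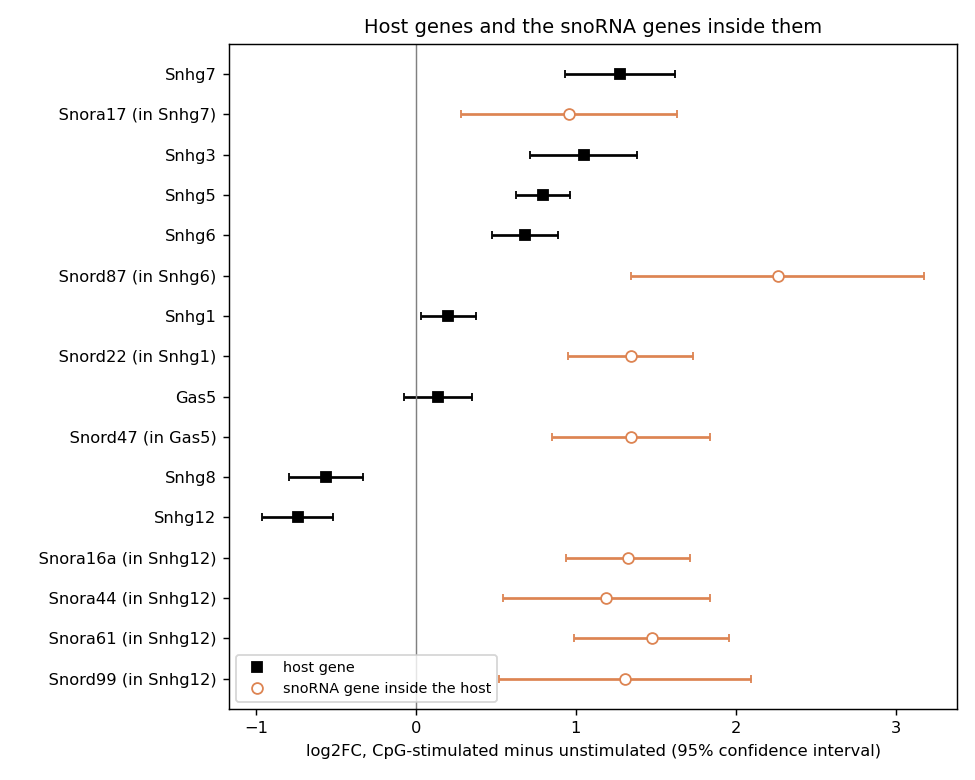
Log2FC (CpG-stimulated minus unstimulated) with 95% confidence interval of the 8 host genes (black squares) and of 8 snoRNA genes inside them (open orange circles, each below its host). Snora43 is left out. The 4 snoRNA genes of Snhg12 lie between 1.19 and 1.48, on the other side of 0 from Snhg12 at -0.74, and those of Gas5, Snhg1 and Snhg6 lie to the right of their hosts.

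Other genes of the pathway were taken from lists. They and the host genes were chosen with earlier results of these data known, so their counts are descriptions to be read beside the background of 37.6% higher and 36.7% lower. Of 9 other noncoding snoRNA hosts tested, 5 were higher, 1 was lower and 3 were not called, with a median log2FC of 0.68. Dancr was at 1.08, 0.97 and 1.15 without and 3.09, 2.91 and 2.59 with CpG (log2FC 1.79, FDR = 7.13e-06). Snhg15, listed as Gm11974, rose by 1.20 (FDR = 1.36e-06). Zfas1, listed as 1500012F01Rik, was the lower one (log2FC -0.29, FDR = 0.00730; 0 genes of the list were lower without both samples of number 3), and Epb41l4aos, listed as 2410004N09Rik, had -0.06 (FDR = 0.564). Like the 8 genes described above, this list held both directions.

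Protein-coding genes that host snoRNAs were divided too, with 11 of 30 higher, 10 lower, 9 not called and a median of -0.10, but 13 higher and 4 lower once samples were centered on the mean of the ribosomal protein genes. Dkc1, which encodes dyskerin, rose by 1.49 (FDR = 3.09e-07) and Eif4a1, a translation initiation helicase, by 1.44 (FDR = 3.08e-07). Rps20, which encodes a ribosomal protein, fell by 0.64 on the log2 scale (FDR = 6.79e-05). 

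Among the proteins that bind snoRNAs a single direction was seen. All 4 core proteins of box C/D particles were higher. Fbl, the methyltransferase fibrillarin, rose by 0.76 (FDR = 1.59e-05), Nop58 by 1.14 (FDR = 1.15e-06), Nop56 by 1.34 (FDR = 9.35e-08) and Snu13, listed as Nhp2l1, by 1.37 (FDR = 1.35e-07). All 4 core proteins of H/ACA particles were also higher. Gar1 rose by 0.88 (FDR = 5.10e-05), Nop10 by 0.91 (FDR = 2.34e-06), the pseudouridine synthase Dkc1 by 1.49 and Nhp2 by 1.55 (FDR = 6.71e-08). Of the factors that assemble these particles 9 of 9 were higher, with a median of 1.21. Shq1, which chaperones dyskerin, rose by 1.80 (FDR = 9.20e-07) and the ATPase Ruvbl2 by 1.66 (FDR = 7.05e-08), while Nufip1 and Pih1d1 had the smallest changes, 0.99 (FDR = 1.40e-06) and 0.39 (FDR = 0.00258).

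Factors of nonsense-mediated decay, the pathway that degrades many spliced host RNAs, went in both directions. Of 11 tested, 6 were lower, 2 higher and 3 not called, with a median of -0.29. Of all genes tested, 36.7% were lower and 37.6% higher. The kinase Smg1 fell by 1.10 (FDR = 1.65e-07) on the log2 scale, and the exonuclease Xrn1 went from 5.71 ± 0.07 to 4.71 ± 0.12 log2 CPM (SD, n = 3 each; limma FDR = 2.60e-06). Smg8 rose by 0.54 (FDR = 9.46e-05) and the helicase Upf1 by 0.19 (FDR = 0.0370), and only 1 factor was higher when stimulated replicate 1 or 3, or unstimulated replicate 1 or 2, was left out. Of 77 cytosolic ribosomal protein genes, 40 were lower, 3 higher and 34 not called, with a median of -0.19, but 18 lower and 12 higher once samples were centered on the mean of these genes, and 22 lower without both samples of number 3. Rps20 and Rpl39 had the most negative values, -0.64 and -0.59 (FDR = 2.17e-04 for Rpl39), and Rpl34 and Rpl29 the highest, 0.58 (FDR = 0.00126) and 0.36 (FDR = 0.00631). Unstimulated means, not adjusted for length, were 10.3 (Rps20), 9.38 (Rpl39), 3.16 (Rpl34) and 5.83 log2 CPM (Rpl29). The same centering added 0.21 to every log2FC and moved the calls over all genes from 4227 higher and 4123 lower to 5046 and 3084. Under it all host genes kept their direction, the median of the 8 was 0.65, and Gas5 passed the threshold with a log2FC of 0.35 (FDR = 0.0111).

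**Figure D4:**
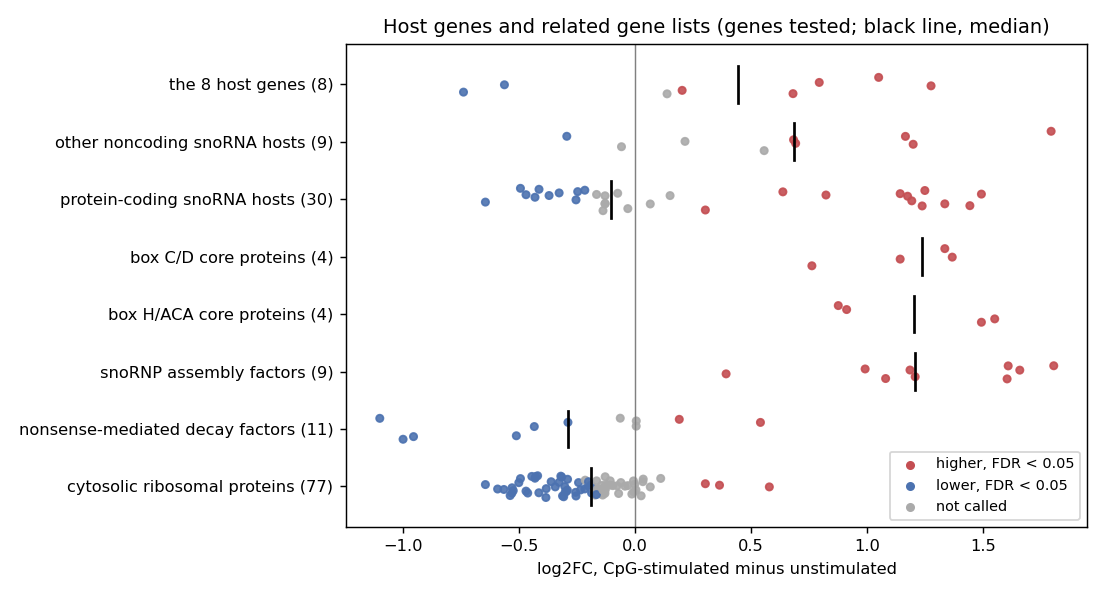
Log2FC (CpG-stimulated minus unstimulated) of each tested gene in 8 lists, 1 list per line with the number of genes tested, red for higher, blue for lower and gray for not called at an FDR of 0.05; the black line is the median. The host genes lie on both sides of 0 (median 0.44), whereas every core and assembly protein of the snoRNA particles lies to the right of it.

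Genes next to a host did not always move with it. Trnau1ap ends 738 bases beyond Snhg12 on the opposite strand and rose by 1.24 (FDR = 1.68e-07), as Snhg12 fell. Slc3a2, which starts 117 bases from Snhg1 on the opposite strand and encodes the heavy chain of an amino acid transporter, had a log2FC of -0.06 (FDR = 0.477), and Wdr74, on the other side of Snhg1, rose by 1.23 (FDR = 8.73e-08). Around Snhg3, Rcc1 rose by 1.98 (FDR = 1.13e-07) and Phactr4 fell by 0.87 on the log2 scale (FDR = 3.21e-06). Annotated transcripts of Rcc1 in GENCODE overlap Snhg3 on the same strand, so reads at Snhg3 may be shared between both genes.

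Around Snhg5, Syncrip rose by 1.13 (FDR = 9.65e-07) and Zfp949 fell by 1.61 on the log2 scale (FDR = 1.22e-06). Gas5 is overlapped on the opposite strand by Zbtb37 over 264 bases. Zbtb37 fell by 0.44 on the log2 scale (FDR = 0.00165). The libraries were stranded, but whether counting used the strand is not stated, so reads of overlapping genes may have been shared. Farther from Gas5, Cenpl fell by 0.57 (FDR = 0.00700) and Serpinc1 had 0.17 (FDR = 0.720). Near Snhg6, Sgk3 fell by 1.24 on the log2 scale (FDR = 2.66e-06), and Mcmdc2, which overlaps Snhg6 over 1582 bases on the opposite strand, did not pass the filter. Agpat2, near Snhg7, had 0.23 (FDR = 0.0934), and neither neighbor of Snhg8 passed the filter.

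The genes whose 6 values followed each host most closely were named by Pearson's r over the 6 samples. As the samples fall into 2 groups, a high r for a host whose groups lay apart can reflect that difference alone. For Gas5 the closest genes were 9030025P20Rik (r = 0.981), Zfp619 (r = 0.981) and Ppp2r3c (r = 0.972). The groups of Gas5 overlapped, and these genes had a log2FC of 0.38, 0.17 and 0.06. For Snhg1 the closest were Tiprl (r = 0.989), Fcer1g (r = 0.985) and Rpl36al (r = 0.983). Fcer1g had a mean of -0.67 log2 CPM, near the filter value of -0.76. For the other hosts r was higher. The closest were Mrfap1, Mtfr1 and Trmt11 for Snhg3, Fam195a, Ipo11 and Timm50 for Snhg5, Thumpd3, Zfp639 and Sars for Snhg6, and Tmed2, Rhbdf2 and Ifi35 for Snhg7. Those of the hosts that fell were Uqcrh, Rrad and Arpc3 for Snhg8, and Pde8a, Map1lc3a and Mafk for Snhg12. Among so many genes and so few samples, values of r near 1 are common.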

How the data were processed

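Trimmed paired reads (FastQC 0.11.7, Trim Galore 0.6.5) were aligned to mm10 with STAR 2.6.1a and counted per gene with featureCounts (Subread 2.0.1), per the labels. The authors then quantile normalized the counts and deposited voom log2 CPM values, which were used as they are. Depth per sample is not kept by this normalization. The most frequent value, -5.152, was taken as that of a gene without reads, 0.5 reads of a common library of 17.8 M. Read numbers were computed from it, and CPM summed to 992384 to 1012396 per sample. Some values were lower. A noncoding host that did not pass the filter was at -5.483 in both samples of number 1 and -4.854 in both of number 3. For some genes the values thus carried a shift by number, so read numbers are approximate. The fit without a block leaves this shift in the spread.

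The 6 samples were grouped by their labels. Both groups were fitted in limma 3.58.1 (R 4.3.3), using lmFit and a trended eBayes step. Only the 11233 genes that exceeded the equivalent of 10 reads (-0.76) in 3 or more samples were tested. FDR is the Benjamini-Hochberg adjusted p over these genes, with a threshold of 0.05. The procedure was tested on simulated data with independent samples, which did not hold the correlation by replicate number given below. Single values were compared with exact permutation tests. Coordinates, starts and neighbors were taken from RefSeq (GRCm38.p6), and snoRNA genes, isoforms and overlaps from GENCODE M21.

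The host genes, the lists and the tests were chosen with earlier results of these data known. Named genes are the 8 hosts, snoRNA genes inside them, all core proteins, the 2 highest and 2 lowest of other lists, tested neighbors, and the 3 genes with the highest r for each host. Snhg14 had no unambiguous match and was not used. Of the genes this rule names, 2 are not reported here.

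Deviations from the group means were correlated at 0.435, 0.224 and 0.300 for samples with the same replicate number and at -0.281 to 0.0279 for others, so the numbers may pair the samples, although a shift by number in the values can also give this. All values are from the fit without the replicate number unless a block is named, and the permutation tests were unpaired. Alternatives covered the filter, a replicate block, the log2(CPM + 1) scale, the variance model, centering of samples, and samples left out.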

Additional observations from a re-analysis of the deposited data

How the results depend on the processing

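Over 16 settings the 8 host genes gave 128 values, of which 118 kept their direction and side of the threshold, 7 no longer passed (all Snhg1), 3 newly passed (all Gas5) and 0 reversed. Snhg1 kept a log2FC of 0.20 but missed the threshold without a filter (FDR = 0.141) and without a variance trend (FDR = 0.0795), and had 0.17 (FDR = 0.196) without both samples of number 3. With each sample left out in turn, Snhg1 ranged from 0.14 to 0.25 and Gas5 from 0.0615 to 0.24. Gas5 passed with 0.14 under the replicate block (FDR = 0.0313) and with 0.35 under centering on ribosomal protein genes (FDR = 0.0111). The pairing of samples by the block changed no other call among the hosts. It gave 6 higher other noncoding hosts, 12 higher and 11 lower protein-coding hosts and 47 lower ribosomal proteins, against 5, 11, 10 and 40 without it. A log2FC beyond 1 left 2 hosts higher and 0 lower. Under ribosomal centering, which adds 0.21 by construction, the median of the hosts was 0.65, and the lower genes numbered 0 among other noncoding hosts, 4 among protein-coding hosts and 18 among ribosomal proteins, of which 12 were higher. Without both samples of number 3, 0 other noncoding hosts and 22 ribosomal proteins were lower. The higher decay factors numbered 1 without a filter, without a trend and without number 3, and 1 to 2 with single samples left out. In all, 13 of 224 list counts moved; apart from the centering and the left-out samples, the cause was not tested. Low read numbers limit the snoRNA genes inside the hosts. The 2 listed at no reads need not reflect depth, since Snora24 lies in the exon of Snhg8, and how overlapping reads were counted is not known.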

Other observations

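The files also listed 100 snoRNA genes outside the 8 hosts, which were looked at after the values inside the hosts had been seen. Their counts repeat those set beside the snoRNA genes of the hosts above and are not a separate result. Of the 100 genes, 52 passed the filter, 3 of them through the stimulated samples alone. After CpG 39 were higher, 1 was lower and 12 were not called, with a median log2FC of 1.14, against 37.6% higher among all genes. Among the 32 that were above the value of 10 reads in all 6 samples, 24 were higher. Snord52 rose most, from -0.63 ± 0.50 to 2.15 ± 0.31 (SD, n = 3 each; limma FDR = 1.49e-05). Snord17 was the one that fell. It was at 3.10, 3.10 and 3.22 in unstimulated samples and at 0.82, 2.06 and 1.36 in stimulated samples, a log2FC of -1.73 (limma FDR = 1.94e-04).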
